A study of Mus musculus with 24 samples.

Results

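Choroid plexus and ependymal genes were followed across mRNA libraries of the mouse nucleus accumbens, a ventral striatal region that normally holds neither tissue. The set has 9 genes of the 55401 gene IDs in the count table, found by their symbols. Ttr, Folr1, Kcnj13, Clic6, Kl, Otx2 and Aqp1 are genes of the choroid plexus, and Foxj1 and Ccdc153 are genes of the ependyma. The set was selected on measured values, in part because Ttr was very high in replicate 6 of the group SNI Gfp. Its levels in that library, and every comparison that uses that group, are therefore given as a description. The 24 libraries form 4 groups of 6. The mice had a sham operation or tibial SNI (spared nerve injury) of the sciatic nerve on the left, which models chronic pain after nerve damage. All of them received an AAV8 vector in the accumbens of both sides, AAV8-hSyn-Egfp (Gfp) or AAV8-hSyn-Mef2c-Egfp (Mef2c), so that no group was free of vector and surgery, and the hSyn promoter drives the transgene in neurons. Mef2c is a transcription factor of neurons. The groups are named by surgery and vector: Sham Gfp and Sham Mef2c without injury, SNI Gfp and SNI Mef2c with it. Mice were 8 to 9 weeks old and of the strain C57BL/6J or DBA/2J. The sources used here do not give the strain, the sex, the animal or the preparation batch of a library. Tissue was taken from both sides with a 14-gauge punch from coronal sections of 1 mm.

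The choroid plexus is a folded sheet of epithelium on a core of vessels and stroma that hangs in the brain ventricles and secretes cerebrospinal fluid. It releases transthyretin, a carrier of thyroid hormone and retinol, and takes up folate for the brain. The ependyma is the neighbouring layer that lines the ventricle walls, and its motile cilia move the fluid. The lateral ventricle lies near the dorsal and medial border of the accumbens. In bulk RNA, fewer cells of a type and less RNA per cell cannot be told apart.

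Total counts lay between 25477019 and 36570108 per library, and no pair of libraries within a group held copies. Levels are counts relative to the library's total (CPM) after scaling by the trimmed mean of M values (TMM). A gene with 3 counts stood at 0.0820 to 0.118 CPM, depending on the library. Striatal projection neuron markers were measured in all 24 libraries, with all 11 genes above 0 counts everywhere and a summed level of 1936 to 5929 CPM. P-values measure only the spread between these libraries, since the labels do not say that they came from separate mice. Reads had been counted over whole gene spans without regard to strand, so Folr1, which overlaps Anapc15, and Kcnj13, which overlaps Gigyf2, are uncertain at low levels.

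Promoter sequences were looked at because regulators of choroid plexus and of cilia genes are among the genes. OTX2 is a homeodomain factor that choroid plexus epithelium needs, and FOXJ1 is the forkhead factor that switches on motile cilia genes together with RFX factors. RefSeq promoters (build GRCm38.p6, 300 bases around the start) were at hand for 5 of the 9 genes. The letters TAATCC, the core that OTX factors bind, were found on either strand in 7.06% of 32851 promoters, TGTTTAC, a forkhead core, in 3.65%, and GTTGCCA, a core of RFX sites, in 4.38%. The motifs do not overlap with one another in the promoters shown. Each is printed 5′ to 3′ on the strand of its gene, with matches in capitals. Otx2 (chr14:48665060-48665359, minus strand) is shown as a choroid plexus gene with an OTX core, on the opposite strand. Aqp1 (chr6:55336049-55336348, plus strand) is shown as a choroid plexus gene with no match. Ccdc153 (chr9:44240427-44240726, plus strand) is the ependymal gene with a promoter at hand and has no match. Tekt1 (chr11:72361833-72362132, minus strand), a filament protein of cilia from the list of related genes, is shown for its RFX core.
Otx2: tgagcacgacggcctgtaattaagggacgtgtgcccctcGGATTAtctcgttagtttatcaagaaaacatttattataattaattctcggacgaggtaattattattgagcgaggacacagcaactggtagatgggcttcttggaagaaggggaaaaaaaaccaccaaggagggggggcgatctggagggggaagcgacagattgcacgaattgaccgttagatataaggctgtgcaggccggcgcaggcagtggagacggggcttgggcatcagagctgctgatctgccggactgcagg
Aqp1: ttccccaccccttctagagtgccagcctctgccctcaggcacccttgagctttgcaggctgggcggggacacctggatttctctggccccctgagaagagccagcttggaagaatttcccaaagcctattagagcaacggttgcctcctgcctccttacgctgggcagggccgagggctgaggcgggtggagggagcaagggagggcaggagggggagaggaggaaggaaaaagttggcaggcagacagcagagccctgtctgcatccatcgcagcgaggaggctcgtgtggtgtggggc
Ccdc153: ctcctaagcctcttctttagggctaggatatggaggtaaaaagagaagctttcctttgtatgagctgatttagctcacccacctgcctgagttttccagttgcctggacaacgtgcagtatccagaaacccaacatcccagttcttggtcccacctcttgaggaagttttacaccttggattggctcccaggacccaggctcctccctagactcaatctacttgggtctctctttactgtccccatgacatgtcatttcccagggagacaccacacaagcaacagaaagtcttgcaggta
Tekt1: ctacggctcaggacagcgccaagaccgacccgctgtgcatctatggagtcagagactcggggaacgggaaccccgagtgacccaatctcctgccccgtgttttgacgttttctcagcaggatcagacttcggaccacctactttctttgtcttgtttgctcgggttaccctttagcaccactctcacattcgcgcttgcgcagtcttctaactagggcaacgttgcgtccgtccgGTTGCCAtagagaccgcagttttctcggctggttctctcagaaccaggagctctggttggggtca

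Of the 5 genes with a promoter at hand (Kcnj13, Kl, Otx2, Aqp1 and Ccdc153), Otx2 held an OTX core and an RFX core in at least 1 of its promoters and the other 4 held neither. None of the 5 held the forkhead core, and Ttr, Folr1, Clic6 and Foxj1 were not searched. An RFX core was found for 10 of the 32 matched genes on a list of other ependymal and motile cilia genes, and for 0 of the 25 matched genes on a list of other choroid plexus genes. Over all 27025 genes of the table the share with an RFX core was 5.02%. The 10 genes were Cfap44, Drc1, Hydin, Iqcg, Lrrc23, Mcidas, Mlf1, Nek5, Tekt1 and Zmynd10. An OTX core was found for 2 of the 25 choroid plexus genes (Abca4 and Car14) and 4 of the 32 cilia genes (Dnah11, Fam216b, Lrrc23 and Mlf1), against 8.14% of all genes. A match describes letters in these windows and is not a binding site.

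The 9 genes differed in the library where they were highest. Each of the 7 choroid plexus genes was highest in SNI Gfp 6, while neither ependymal gene was. The ependymal genes were high in another set of libraries, spread over all 4 groups. No gene had group ranges that did not overlap, in any of 36 pairings of a gene with 2 groups. The same count was not made over all genes, so it does not set these genes apart.

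**Figure D1:**
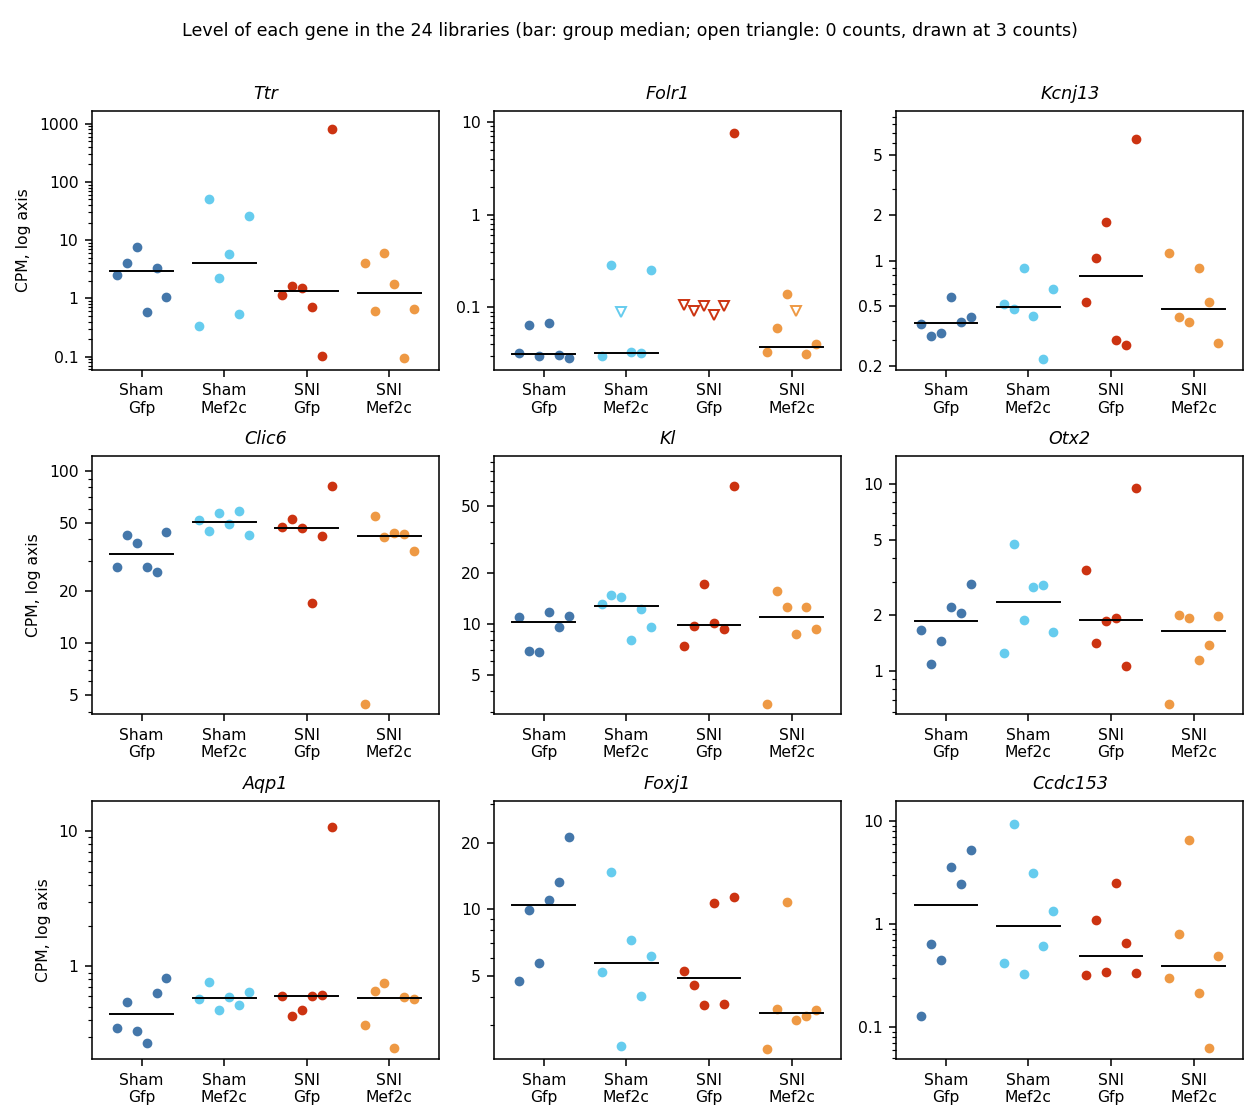
Level of each of the 9 genes in every library (points, CPM on a log axis, 6 libraries per group, drawn from replicate 1 to 6 from left to right); black bars are group medians, and open triangles are libraries with 0 counts, drawn at the level of 3 counts. Ttr reached 809 CPM in SNI Gfp 6 and at most 50.2 CPM elsewhere, and Foxj1 and Ccdc153 were spread within every group. The median of Folr1 in SNI Gfp is 0 and has no bar.

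Ttr encodes transthyretin, the most abundant secreted protein of choroid plexus epithelium (ENSMUSG00000061808.4, mm10 chromosome 18, 20665280 to 20674321). In SNI Gfp its lowest level was 0.103 CPM, its median 1.32 CPM and its highest 809 CPM. The other 5 libraries of that group had at most 1.65 CPM, so 1 library carried the group's whole excess. The next highest levels of the series were both in Sham Mef2c, 50.2 CPM in replicate 2 and 26.1 CPM in replicate 6. That group had a lowest level of 0.332 CPM and a median of 3.997 CPM. In Sham Gfp the lowest, median and highest levels were 0.574, 2.92 and 7.64 CPM, and in SNI Mef2c 0.0938, 1.22 and 6.11 CPM. The medians ran from Sham Mef2c through Sham Gfp and SNI Gfp down to SNI Mef2c, and all 4 ranges overlapped. Ttr was detected in all 24 libraries, with 3 to 28927 counts. In SNI Gfp 6 it stood 490-fold above the median of the other 23 libraries and 16.1-fold above the highest of them.

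Folr1 encodes the folate receptor that carries folate across choroid plexus epithelium (ENSMUSG00000001827.12, chromosome 7, 101858331 to 101870788). It had 309 counts over the 24 libraries, 272 of them in SNI Gfp 6, where it stood at 7.61 CPM. The other 5 SNI Gfp libraries had 0 counts, which allows up to 3 counts each. Sham Mef2c 2 and 6, the libraries next in Ttr, were also next in Folr1, with 9 and 7 counts. The remaining libraries had 0 to 5 counts, so that the gene was at or near the detection limit outside 3 libraries, and 7 of 24 had none. Folr1 did not pass the filter on low counts and is not among the 8 genes tested below. With no filter it was tested, and did not pass in any of the 5 comparisons.

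The ratio of Ttr to Folr1 counts was compared in the 3 libraries with most of both. It was 106 in SNI Gfp 6 (exact binomial 95% interval 94.4 to 120, counting error only), 175 in Sham Mef2c 2 (92.0 to 384) and 104 in Sham Mef2c 6 (50.01 to 258.5). The 3 intervals overlapped. In SNI Mef2c 3, with 5 counts of Folr1, the ratio was 43.6 (18.4 to 136). With 2 counts of Folr1 each, Sham Gfp 4 had 8.5 (2.02 to 75.9) and SNI Mef2c 2 had 10.0 (2.43 to 88.2). Both intervals lay below that of SNI Gfp 6. The wide intervals of the remaining libraries with any Folr1 count overlapped it.

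**Figure D2:**
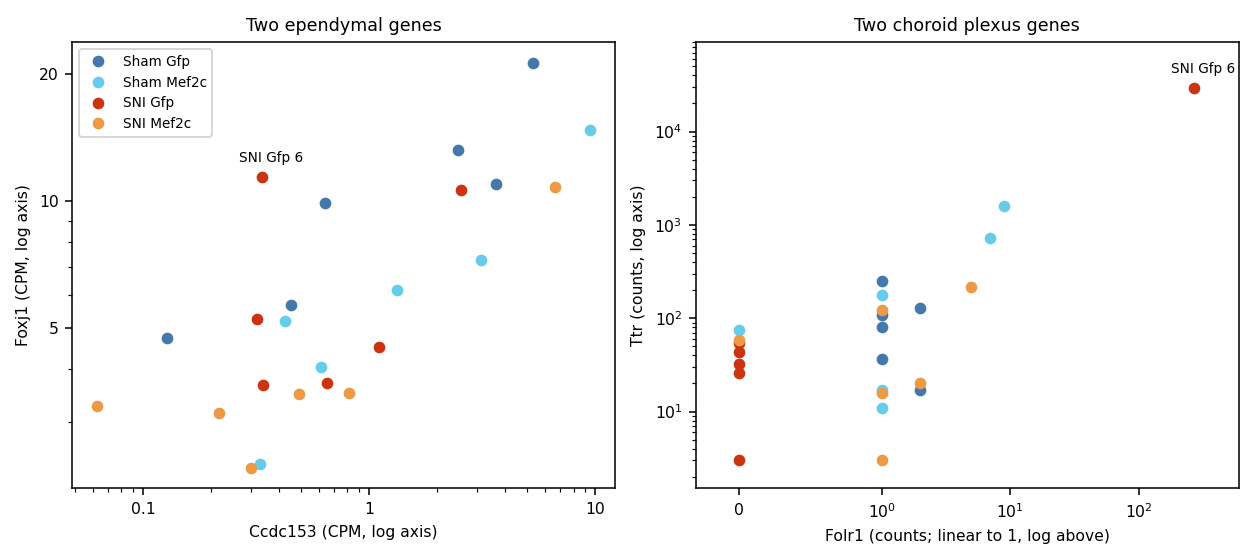
Left: Foxj1 against Ccdc153 (CPM, log axes), 1 point per library coloured by group. Right: Ttr against Folr1 (raw counts; the Folr1 axis is linear up to 1 and logarithmic above). SNI Gfp 6 has 28927 Ttr and 272 Folr1 counts. Its Foxj1 of 11.4 CPM stands beside a Ccdc153 of 0.336 CPM, away from the other libraries with Foxj1 of at least 10.6 CPM. Sham Gfp 2, with a Foxj1 of 9.90 CPM, also has little Ccdc153 (0.639 CPM).

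The channel and transport genes had the same single high library, by unequal margins. Aqp1 encodes the water channel of the epithelium that faces the ventricle (ENSMUSG00000004655.5, chromosome 6, 55336432 to 55348555). It reached 10.7 CPM in SNI Gfp 6 and lay between 0.247 and 0.817 CPM in the other 23 libraries, a 13.1-fold step to the next library. Kcnj13 encodes the potassium channel Kir7.1 (ENSMUSG00000079436.3, chromosome 1, 87386363 to 87394729). It stood at 6.38 CPM there and at 0.225 to 1.80 CPM elsewhere, the next library being SNI Gfp 3. Its counts outside SNI Gfp 6 were 7 to 53 per library, against 68208 in all for Gigyf2, which overlaps it. Clic6 encodes an intracellular chloride channel protein (ENSMUSG00000022949.9, chromosome 16, 92485736 to 92541243). Its 81.1 CPM in SNI Gfp 6 was 1.38-fold above the next library, and the other 23 had a median of 42.8 CPM. Clic6 was thus well detected throughout, apart from a low level of 4.47 CPM in SNI Mef2c 1.

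Kl encodes klotho, a coreceptor for fibroblast growth factor 23 (ENSMUSG00000058488.7, chromosome 5, 150952607 to 150993817). It reached 65.3 CPM in SNI Gfp 6, 3.79-fold above SNI Gfp 3 with 17.2 CPM, and had a median of 10.0 CPM in the other 23 libraries. Otx2 (ENSMUSG00000021848.16, chromosome 14, 48657677 to 48673819), whose promoter is printed above, stood at 9.51 CPM in SNI Gfp 6 and at 0.666 to 4.78 CPM elsewhere, Sham Mef2c 2 being next. Both genes, like Clic6, had counts in every library, at least 101 for Kl and 20 for Otx2. Which cells gave these counts was not tested. Kl (3.37 CPM), Clic6 and Otx2 (0.666 CPM) had their lowest level of the series in SNI Mef2c 1. In that library the list of 10 cortical projection neuron markers summed to 1698 CPM, against 156 to 895 CPM in the other 23, and the striatal list to 1936 CPM, the lowest of the series. The part of these markers in the low levels was not tested.

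Per length of gene span, on the deposited FPKM scale, the genes ranked differently. In SNI Gfp 6 Ttr stood at 91.7 FPKM, Foxj1 at 2.48, Kl at 1.62, Clic6 at 1.50, Aqp1 at 0.906, Kcnj13 at 0.781, Folr1 at 0.626, Otx2 at 0.604 and Ccdc153 at 0.0519 FPKM. These lengths include introns, so a gene with long introns reads low. The median over all 24 libraries was highest for Foxj1, at 1.11 FPKM, followed by Clic6 at 0.771, Kl at 0.255 and Ttr at 0.187 FPKM.

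A list of 32 other choroid plexus epithelium genes showed how far the single library extended. The list was written with earlier results of these data known. Of its 30 tested genes, 24 (80.0%) were highest in SNI Gfp 6, against 530 of all 23738 genes tested (2.23%), and 14 were over 2-fold above the next library, against 34 of all genes (0.143%). Their median ratio to the median of the other 23 libraries was 4.62, against 0.993 for all genes. The largest ratios belonged to Cldn2, a tight junction protein of this epithelium (67.5-fold, 10.5 CPM), Slc4a5, a sodium bicarbonate transporter (55.4-fold, 19.05 CPM), and Tmem72 (42.1-fold, 55.8 CPM). They were followed by Sostdc1, a secreted BMP and WNT modulator (38.8-fold), F5, coagulation factor V (29.5-fold), Kcne2, a potassium channel subunit (25.4-fold), and Calml4 (15.8-fold). Calml4 overlaps Gm10653, and Otx2os1 of the list overlaps Otx2. Rdh5, Slc4a2 and Car14 of the list also overlap a gene with more counts. Reads of these genes may be shared with their neighbours. Wfdc2, with few counts elsewhere, reached 0.811 CPM, 2.43-fold above the next library. The genes of the list with the highest levels in the other 23 libraries had unequal ratios (named after their values were seen). Atp1b1, a subunit of the sodium pump, was at 0.869-fold and Car2, carbonic anhydrase 2, at 1.06-fold, while Enpp2, which encodes autotaxin, was at 5.66-fold, with 814 CPM against at most 222 CPM elsewhere. Slc13a4, a sulfate transporter that meningeal cells also express, was higher in SNI Gfp 3 (49.5 CPM) than in SNI Gfp 6 (22.4 CPM).

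**Figure D3:**
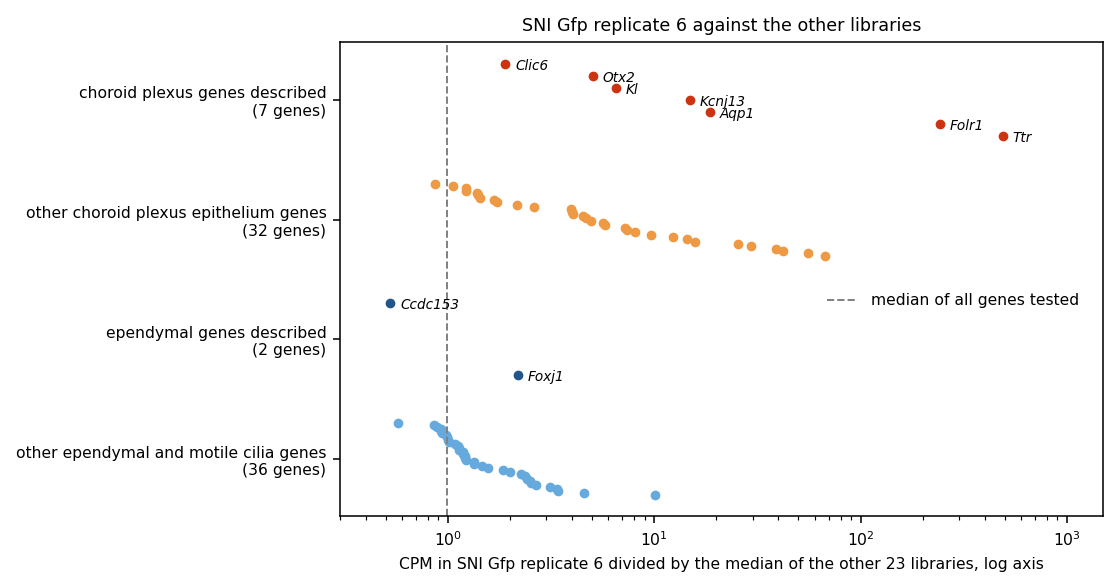
Level in SNI Gfp 6 divided by the median of the other 23 libraries (log axis) for the 7 choroid plexus and 2 ependymal genes described and the 2 lists of related genes, 1 point per gene; the dashed line is the median of all genes tested, 0.993. Ttr lies at 490, Clic6 at 1.90 and Ccdc153 at 0.526, and the median of the other 23 libraries for Folr1 stands for a single count.

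Among the tested genes with at least 1 CPM in SNI Gfp 6, the 10 with the largest step from that library to the next were Tmem72 (21.8-fold), Slc4a5 (17.6-fold), Ttr, Aqp1, Kcne2 (12.5-fold), Sostdc1 (10.3-fold), F5 (8.25-fold), 1500015O10Rik (6.42-fold) and 2 predicted transcripts. Those 2 overlap Otx2os1 and 1500015O10Rik, which are on the choroid plexus list. All 10 were thus choroid plexus genes described here or on the list, or transcripts that overlap one. The filter on low counts decided this. Among all 19311 genes with at least 1 CPM in SNI Gfp 6, tested or not, the 15 with the largest step were 6 choroid plexus genes, with Folr1 (26.5-fold) and Cldn2 (22.1-fold) ahead of Tmem72, and 9 immunoglobulin variable genes or pseudogenes, led by Ighv6-6 (46.9-fold) (ranked after their values were seen). Genes of that family summed to 430.0 CPM in SNI Gfp 6, 0.0917 to 98.4 CPM in the other 5 SNI Gfp libraries, 44.4 to 757 CPM in Sham Gfp, 0.0319 to 138 CPM in Sham Mef2c and 0.0601 to 1.27 CPM in SNI Mef2c, and their near-identical copies make single values uncertain. Of the 33 choroid plexus genes highest in SNI Gfp 6, counting those not tested, the next library was Sham Mef2c 2 for 10 and SNI Gfp 3 for 8. Markers of other cells also differed between the libraries. In SNI Gfp 6 a list of 13 meningeal and fibroblast genes summed to 236 CPM, above the other SNI Gfp libraries except SNI Gfp 3 with 536 CPM. Its range was 108 to 141 CPM in Sham Gfp, 116 to 261 CPM in Sham Mef2c and 114 to 209 CPM in SNI Mef2c. All 13 of these genes had counts in every library. The 12 interferon response genes summed to 612 CPM there, against 51.2 to 339 CPM in the other 5 SNI Gfp libraries, and 287 to 1090 CPM in Sham Gfp. With the Mef2c vector it was 44.6 to 61.99 CPM after sham and 44.8 to 65.2 CPM after SNI. The 8 microglial genes summed to 748 CPM, against 417 to 674 CPM in the other SNI Gfp libraries, 645 to 897 CPM in Sham Gfp, 414 to 921 CPM in Sham Mef2c and 427 to 497 CPM in SNI Mef2c. The 11 striatal neuron genes summed to 4124 CPM, within the range of that group. The part of these lists in the choroid plexus levels was not tested.

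**Figure D4:**
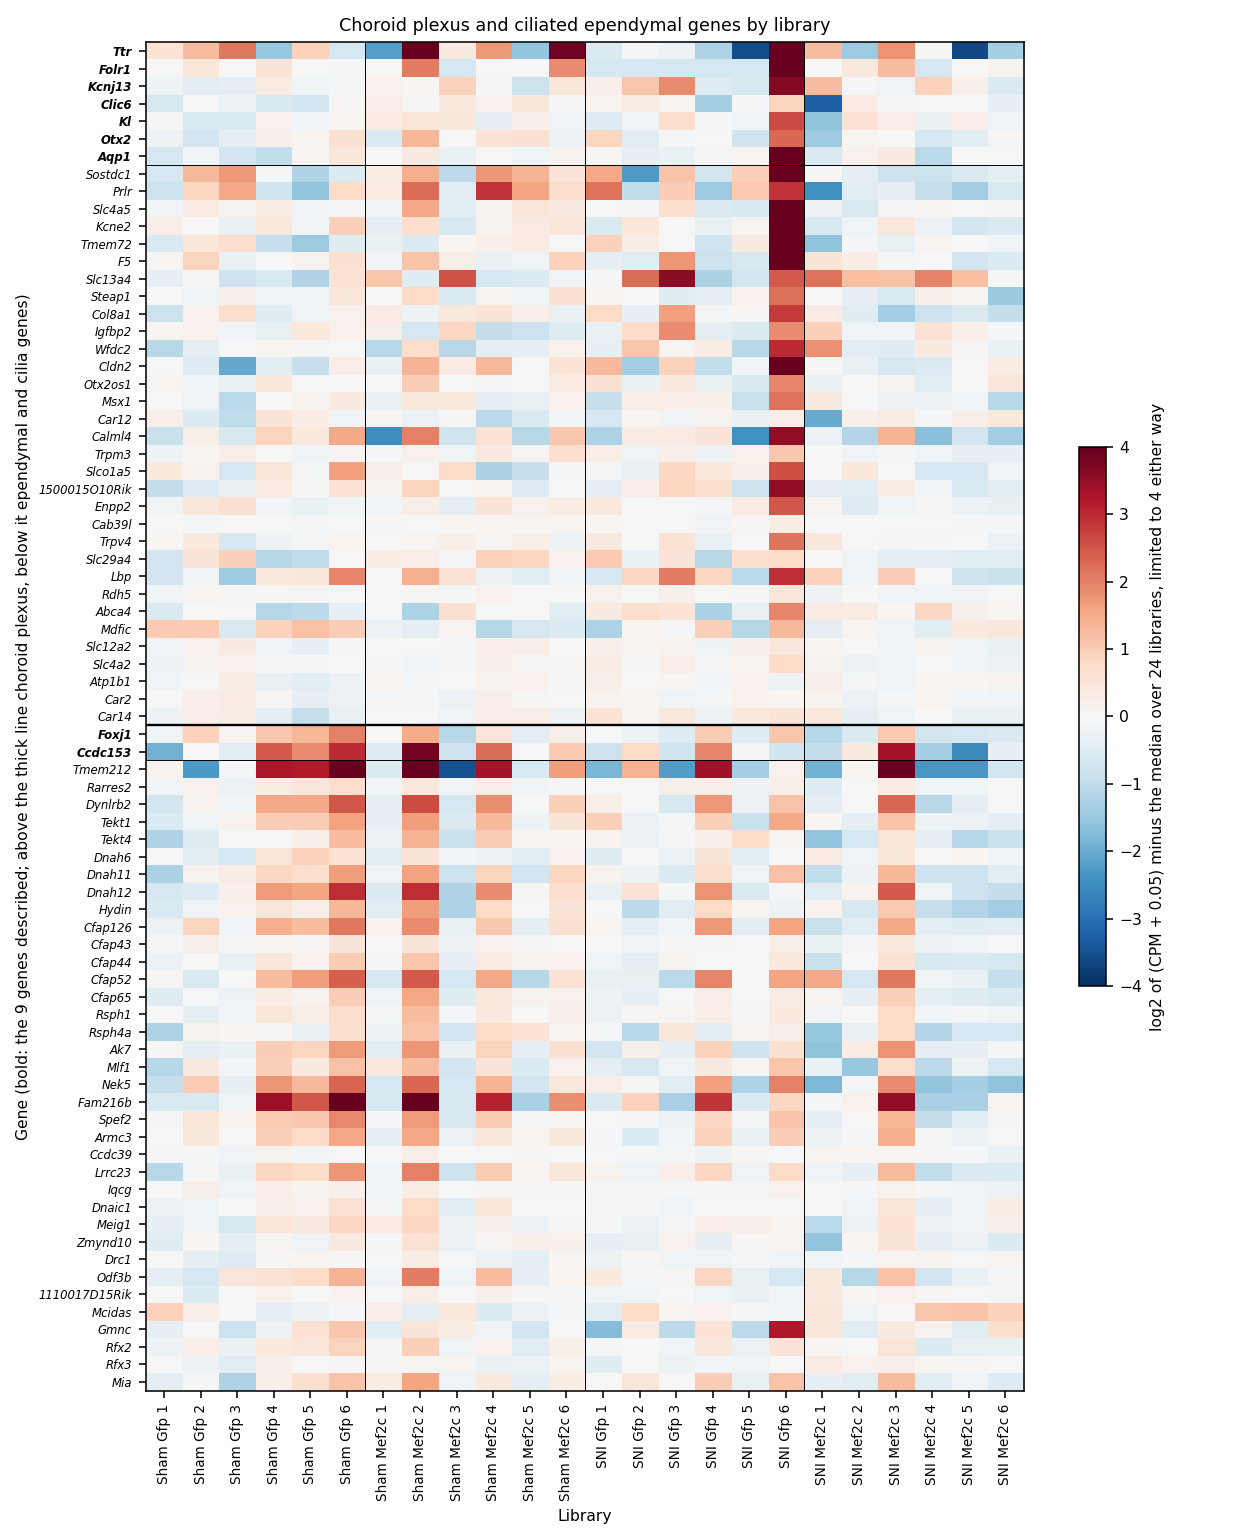
The 7 choroid plexus genes and 32 related genes (above the thick line) and the 2 ependymal genes and 36 related genes (below it) in the 24 libraries, as log2 of CPM with 0.05 added, minus each gene's median over the libraries, with colours limited to 4 either way. The column of SNI Gfp 6 is red for most choroid plexus genes, while many of the cilia genes are red in Sham Gfp 4 to 6, Sham Mef2c 2 and 4, SNI Gfp 4 and SNI Mef2c 3. Some cilia genes, among them Mcidas, Rfx3 and Ccdc39, do not follow these libraries.

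By rank the choroid plexus genes varied together weakly, with and without SNI Gfp 6. Among the 21 pairs of the 7 genes, Spearman's rho over 24 libraries had a median of 0.241, and over the other 23 libraries a median of 0.137 and a highest value of 0.434 (Clic6 and Kl). The lowest over those 23 was -0.31 (Ttr and Kl), and Ttr with Clic6 had -0.206. Over those 23, Otx2 had 0.52 with Foxj1 and 0.518 with Ccdc153, and Aqp1 0.464 and 0.564, all above every pair of choroid plexus genes. The 14 pairs of a choroid plexus with an ependymal gene lay between -0.282 and 0.564, the lowest being Kcnj13 with Foxj1. These correlations share the libraries' depth and, for Folr1 and Kcnj13, very few counts. The genes most like Ttr among 19088 genes with a mean of at least 1 CPM were Rps19-ps3, a ribosomal pseudogene (rho = 0.717, n = 24), Hsd11b1 (0.669), Zbtb1 (0.661), Pak4 (0.620) and Psma1 (0.617), none of them on the choroid plexus list. For Folr1 they were Nudt6 (0.703), Nmb (0.679), Fgf2 (0.675), Fancl (0.674) and Alkbh1 (0.663), from mostly 0 to 2 counts per library. Hsd11b1, Pak4, Nudt6, Nmb and Fgf2 each overlap a gene with more counts, so their reads may be shared with it. Ranks give the 1 very high library little weight.

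Ccdc153, a coiled-coil protein of ependymal cilia (ENSMUSG00000070306.3, chromosome 9, 44240676 to 44247306), had its 7 highest libraries at 2.46 CPM or more and the eighth at 1.33 CPM. They were Sham Gfp 4, 5 and 6, Sham Mef2c 2 and 4, SNI Gfp 4 and SNI Mef2c 3. Its lowest, median and highest levels were 0.127, 1.55 and 5.30 CPM in Sham Gfp and 0.328, 0.971 and 9.46 CPM in Sham Mef2c. They were 0.320, 0.496 and 2.54 CPM in SNI Gfp and 0.0625, 0.394 and 6.65 CPM in SNI Mef2c. Each group thus had libraries with clear signal and libraries with few counts. SNI Gfp 6 was 18th of 24, at 0.336 CPM.

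Foxj1 (ENSMUSG00000034227.7, chromosome 11, 116330704 to 116335399), the master regulator of motile cilia, was detected in every library with 70 to 755 counts. Its lowest, median and highest levels were 4.75, 10.4 and 21.3 CPM in Sham Gfp and 2.39, 5.67 and 14.8 CPM in Sham Mef2c. After SNI they were 3.68, 4.89 and 11.4 CPM in SNI Gfp and 2.33, 3.39 and 10.8 CPM in SNI Mef2c. The medians ran in that order and all ranges overlapped. Of its 7 highest libraries 6 were those of Ccdc153, and the other was SNI Gfp 6, which ranked 4th at 11.4 CPM. Foxj1 and Ccdc153 had a rho of 0.707 over 24 libraries and 0.789 over 23 without SNI Gfp 6. The genes most like Foxj1 were Spef2 (0.932), Cfap126 (0.921), Daw1 (0.917) and Efhb (0.917), known from motile cilia, and Dbi (0.898), a binding protein for acyl-CoA found in glia and ependyma.

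Most of the 36 other ependymal and motile cilia genes were high in the same libraries. For 6 of them, Tmem212, Dynlrb2, Dnah12, Ak7, Fam216b and Odf3b (named after their values were seen), the 7 highest libraries were those of Ccdc153. A further 17 shared 6 of the 7 libraries, 6 shared 5, and 7 shared fewer (Rsph4a, Ccdc39, Zmynd10, Drc1, Mcidas, Gmnc and Rfx3). Mcidas, a regulator of multiciliated cells, shared 0 and had the only negative rho with Ccdc153 (-0.578), and Rfx3 (0.13), 1110017D15Rik (0.199) and Ccdc39 (0.223) had the next lowest. Ccdc39 overlaps Ttc14 and Fam216b overlaps Gm19301, which have more counts, so reads may be shared with these neighbours. Rarres2, Iqcg, Dnaic1 and Mia of the list also overlap a gene with more counts. The median rho of the 36 genes with Ccdc153 was 0.667, against -0.0252 over the 19088 genes. The highest library was Sham Mef2c 2 for 24 of the 36 and Sham Gfp 6 for 6. Tmem212 ranged from 0 counts to 13.7 CPM and Dnah12, an axonemal dynein chain, from 0.537 to 10.5 CPM. Sham Mef2c 2 also had the highest sums of the septal neuron list (343 CPM, at most 246 CPM elsewhere) and of the list for the progenitors and neuroblasts of the subventricular zone (223 CPM, at most 217 CPM elsewhere). The part of these in the cilia genes was not tested.

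SNI Gfp 6 ranked unequally for the cilia genes. It was among the 4 highest libraries for 10 of the 36, Tekt1, Dnah11, Cfap126, Mlf1, Nek5, Spef2, Armc3, Gmnc, Rfx2 and Mia, as it was for Foxj1. The share of all genes with that library among their 4 highest was not counted. For the 6 genes that shared all 7 libraries with Ccdc153 it ranked between 8th and 22nd. It is not one of those 7 libraries, so 8th was the highest rank possible. Gmnc, a regulator of multiciliated cell formation, was the only one of the 36 that was highest there, at 4.73 CPM, 4.42-fold above the next library. That is 2.86% of the 35 tested cilia genes, near the 2.23% of all genes tested. Nek5 stood 4.59-fold, Cfap126 3.41-fold, Cfap52 3.40-fold and Tekt1 3.14-fold above the median of the other 23 libraries.

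The comparison of SNI with sham under the Gfp vector asks what the injury changes where no Mef2c was added. It holds SNI Gfp 6 and is a description for these genes. None of the 8 tested genes passed an adjusted p of 0.05 in edgeR's quasi-likelihood test, where 0% of all genes did (0 of 23738), 2928 genes had an unadjusted p under 0.05, DESeq2 called 557 and limma-voom with quality weights 2777. Of the 8 genes 4 had an unadjusted p under 0.05, all higher after SNI. The log2 fold change was 5.41 (SE 1.71) for Ttr, 2.19 (SE 0.68) for Aqp1, 2.10 (SE 0.60) for Kcnj13, 1.06 (SE 0.44) for Kl, 0.76 (SE 0.44) for Otx2, 0.47 (SE 0.36) for Clic6, -0.74 (SE 0.45) for Foxj1 and -1.23 (SE 1.00) for Ccdc153. Among the related genes, Tmem72 had 3.19 (SE 0.85), Slc4a5 3.22 (SE 0.93) and Slc13a4 2.29 (SE 0.73), and the 30 tested choroid plexus genes of the list had a median of 0.74, against 0.01 over all genes. The 35 tested cilia genes had a median of -0.19, and no gene of either list passed.

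Without SNI Gfp 6 the difference in the choroid plexus genes was mostly gone. Ttr then stood at -1.64 (SE 1.10, adjusted p = 0.517), Aqp1 at 0.15 (SE 0.27, adjusted p = 0.862), Kl at 0.18 (SE 0.28, adjusted p = 0.832) and Otx2 at 0.035 (SE 0.35, adjusted p = 0.980) in edgeR. Kcnj13 kept 0.96 (SE 0.44, adjusted p = 0.267) and Clic6 0.26 (SE 0.36, adjusted p = 0.801). The 8 genes' median went from 0.91 to 0.091, and Tmem72 went to 0.46 and Slc4a5 to -0.14. None of the 8 passed in that fit, where 5.83% of all genes did (1392 of 23891). Of the 8 genes 1 had an unadjusted p under 0.05, as did 16.7% of all genes. Slc13a4 kept 2.19 (adjusted p = 0.106). Foxj1 was at -0.96 (SE 0.47, adjusted p = 0.304) and Ccdc153 at -1.04 (SE 1.05, adjusted p = 0.707).

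**Figure D5:**
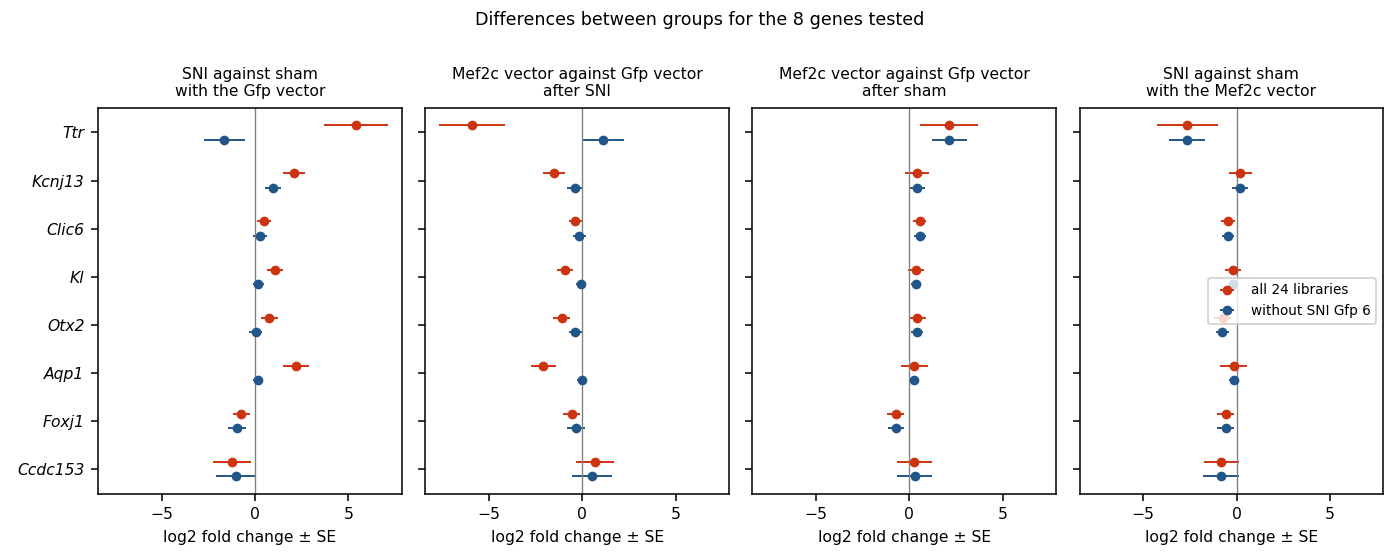
Log2 fold change with its standard error for the 8 genes tested in 4 comparisons (panels), from edgeR on all 24 libraries (red) and without SNI Gfp 6 (blue). In the 2 comparisons that hold SNI Gfp, Ttr goes from 5.41 to -1.64 and from -5.90 to 1.13 when that library is left out, and in the other 2 the values stay near each other.

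The comparison of the Mef2c vector with the Gfp vector after SNI, which asks what added Mef2c changes in injured mice, shares the 6 SNI Gfp libraries. Ttr had a log2 fold change of -5.90 (SE 1.77), Aqp1 -2.08 (SE 0.68), Kcnj13 -1.50 (SE 0.58), Otx2 -1.09 (SE 0.45), Kl -0.94 (SE 0.44), Foxj1 -0.56 (SE 0.45), Clic6 -0.37 (SE 0.36) and Ccdc153 0.69 (SE 1.01). None of the 8 genes passed in edgeR, where 0.00421% of all genes did (1 of 23738). Of the 8 genes 5 had an unadjusted p under 0.05, as did 14.3% of all genes (3383). Over all genes DESeq2 called 453 and limma-voom 13, and edgeR called 379 without SNI Gfp 2, 162 without SNI Gfp 5 and 153 without SNI Gfp 1. Without SNI Gfp 6 the value was 1.13 (SE 1.11, adjusted p = 0.681) for Ttr and between -0.37 and 0.51 for the others. Again none of 8 passed the threshold, against 0.00419% of all genes. An unadjusted p under 0.05 was reached by 0 of the 8, against 10.7% of all genes. The interaction of surgery and vector, in which SNI Gfp also enters, had -8.04 (SE 2.33) for Ttr and -2.34 (SE 1.00) for Aqp1 in edgeR. None of 8 genes passed, and 0% of all genes were called. An unadjusted p under 0.05 was reached by 4 of the 8 genes and by 14.9% of all genes. DESeq2 called 7 of all genes and limma-voom 4074. Without SNI Gfp 6 the interaction value for Ttr was -1.02 (SE 1.45). None of the 8 genes passed in that edgeR fit, where 1.13% of all genes did (269 of 23891). None of the 8 had an unadjusted p under 0.05 there, against 18.7% of all genes.

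The comparison of the 2 vectors after sham surgery and that of SNI with sham under the Mef2c vector do not use SNI Gfp. With the Mef2c vector after sham, Ttr had in edgeR a log2 difference of 2.14 (SE 1.56, adjusted p = 0.473), Clic6 of 0.56 (SE 0.36, adjusted p = 0.405) and Foxj1 of -0.73 (SE 0.45, adjusted p = 0.380). Clic6 was between 42.3 and 58.8 CPM in Sham Mef2c and between 25.8 and 44.4 CPM in Sham Gfp, so that 5 Sham Mef2c libraries lay above every Sham Gfp library. Kcnj13, Kl, Otx2, Aqp1 and Ccdc153 had values between 0.26 and 0.42. None of the 8 genes passed, where 9.41% of all genes did (2233, of which 351 were higher). None of the 8 had an unadjusted p under 0.05, where 21.2% of all genes did. The median over the 8 genes was 0.37, against 0.019 over all genes. Fitted without SNI Gfp 6, which enters the shared estimate of the spread, Ttr had 2.15 (SE 0.96, adjusted p = 0.190). In that fit 1 of the 8 genes, Ttr, had an unadjusted p under 0.05, as did 21.5% of all genes. None of the 8 passed there, against 9.84% of all genes. Without Sham Mef2c 2, its highest library in these groups, the value of Ttr was 1.11 (SE 1.61, adjusted p = 0.764), and in limma-voom 0.67 (SE 1.37, adjusted p = 0.779). Clic6 passed when the fit held these 2 groups alone (0.57, adjusted p = 0.0291), where 2038 of 22755 genes did, and in no other setting run. The summed interferon list, 287 to 1090 CPM in Sham Gfp and 44.6 to 61.99 CPM in Sham Mef2c, separated these 2 groups, and its part in these values was not tested.

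In the list of related choroid plexus genes, 1 of 30 tested genes passed in this comparison, a smaller share than the 9.41% of all genes. Mdfic, a regulator of transcription factor activity that many cell types express, was lower with the Mef2c vector, by -1.30 on the log2 scale in edgeR (SE 0.37, adjusted p = 0.0236). It was 2.37 to 5.79 CPM in the 6 Sham Mef2c libraries and 3.503 to 11.9 CPM in Sham Gfp, where 5 of 6 libraries had over 10 CPM. The call was lost when Sham Gfp 5 (adjusted p = 0.0562), Sham Mef2c 4 (0.0607) or Sham Mef2c 5 (0.0549) was left out. Prlr, the prolactin receptor, had 1.26 (SE 0.67, adjusted p = 0.293). None of the 35 tested cilia genes passed, and their median was -0.036.

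With the Mef2c vector, SNI against sham gave in edgeR a log2 difference of -2.64 for Ttr (SE 1.62, adjusted p = 0.429), -0.81 (SE 0.96, adjusted p = 0.721) for Ccdc153, -0.75 (SE 0.45, adjusted p = 0.422) for Otx2, -0.57 (SE 0.46, adjusted p = 0.561) for Foxj1 and -0.45 (SE 0.36, adjusted p = 0.558) for Clic6. Kl, Aqp1 and Kcnj13 lay between -0.21 and 0.20. None of the 8 genes passed and none had an unadjusted p under 0.05, where 0% of all genes passed, 3816 had an unadjusted p under 0.05, DESeq2 called 4 and limma-voom 0. DESeq2 gave an adjusted p to 1 of the 9 genes here. In the edgeR fit without SNI Gfp 6, 2 of the 8 genes had an unadjusted p under 0.05 (Ttr 0.0133 and Otx2 0.0347). Both were lower after SNI, and 15.7% of all genes had such a p. None of the 8 passed in that fit, where 0% of all genes did. The value of Ttr was between -3.29 and -1.60 with each library left out in turn, among them -1.60 (SE 1.66, adjusted p = 0.714) without Sham Mef2c 2 and -2.66 (SE 0.98, adjusted p = 0.247) without SNI Gfp 6, and the highest Ttr levels of Sham Mef2c were in 2 of its 6 libraries. None of the tested genes of the 2 lists passed. The smallest p-values were those of Prlr (-2.55, SE 0.72, adjusted p = 0.223) and of Mcidas (0.75, SE 0.27, adjusted p = 0.226).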

How the data were processed

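mRNA libraries of 24 accumbens samples were analysed from the raw count table and the FPKM table that the authors deposited. Per the submitters' processing notes the counts came from featureCounts on mm10, with the aligner and annotation not stated. The tables had 55401 IDs, of which 55141 matched a GENCODE symbol. Each deposited FPKM above 0 (100%) could be rebuilt from its count, the library total and a gene length (relative tolerance 1e-06), and this length was the whole gene span for 42625 of 42625 genes. In 1296 of 1296 nested gene pairs on opposite strands the outer gene was never below the inner one, so strand was not used in counting. Libraries of a group were compared as 60 pairs, and none was a copy (chi-square of at least 3.22 per degree of freedom).

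Tests used edgeR 4.0.16 (filterByExpr, TMM, robust quasi-likelihood, 1 coefficient per group, 20 residual degrees of freedom) on the deposited counts in R 4.3.3, two-sided, with Benjamini-Hochberg adjustment over 23738 genes and a threshold of 0.05. The test was checked on simulated data. CPM values are counts scaled by library size and TMM factor, and fold changes and list medians are on the log2 scale. The edgeR test gives no standard error (SE). The SE printed for it is the absolute log2 fold change divided by the square root of the test's F statistic. Intervals and floors of 3 counts cover counting error only. Alternatives were RLE scaling, the library size alone, 2 other count filters, DESeq2 1.42.0, limma-voom 3.58.1, FPKM with 1 or 0.1 added, a replicate block, the compared groups alone and each library left out.

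The 9 genes, the related lists and the marker lists were chosen with earlier results of these data known. Named are the 9 genes in every comparison; from each related list up to 8 genes by the ratio of SNI Gfp 6 to the median of the other 23 libraries, up to 4 by smallest p per comparison and any past the threshold; the 5 genes most like Ttr, Folr1 and Foxj1 by Spearman's rho, passing over predicted genes; and, among tested genes with at least 1 CPM in SNI Gfp 6, the 10 with the largest step from it to the next library.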

Additional observations from a re-analysis of the deposited data

Results flagged for a closer look

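Within the groups of 6 libraries, a library stood apart on log2 CPM in 5 of 36 checks of a gene in a group, by the size of its gap to the nearest library against the whole range of the group. In SNI Gfp, replicate 6 stood above the other 5 libraries for Ttr (809 CPM), Aqp1 (10.7 CPM) and Folr1 (7.61 CPM). In SNI Mef2c, replicate 1 stood below the others for Clic6 (4.47 CPM), and replicate 3 above the others for Foxj1 (10.8 CPM). The genes were chosen in part for their levels in SNI Gfp 6, so these 3 are a description and the 5 cannot be read against chance, which gives such a gap in about 1 of 20 groups. The remaining groups of these 5 genes, and all groups of Kcnj13, Kl, Otx2 and Ccdc153, had no such library by this measure.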

How the results depend on the processing

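None of the genes passed in 167 of 169 counts under the alternatives, including the replicate block (0 in all 5 comparisons) and each of the 24 libraries left out (0 to 0 in each comparison). The 2 exceptions were 1 gene with DESeq2 in SNI against sham with the Gfp vector (Kcnj13, log2 fold change 2.10, adjusted p = 0.0258) and 1 gene, Clic6, with the compared groups alone in the vector comparison after sham (0.57, adjusted p = 0.0291). Over the other alternatives neither gene passed. Over all genes DESeq2 called 557 of 24065 in the first of these comparisons. The compared groups alone gave 2038 of 22755 in the second. The first comparison holds SNI Gfp 6, and without that library Kcnj13 had 0.96 in edgeR (adjusted p = 0.267). DESeq2 gave no adjusted p to Ttr, Aqp1 and Folr1 in any comparison, nor to 8 of the 9 genes in SNI against sham with the Mef2c vector. The labels do not say whether same-numbered libraries belong together. Of 24 same-numbered pairs 4 had a correlation of deviations over 0.1, and 2 correlated best with their own number. The correlations lay between -0.43 and 0.279, and they cannot decide whether the numbers are a pairing. With the replicate block Ttr went from 5.41 to 0.686 (adjusted p = 0.957) in SNI against sham with the Gfp vector, from -5.90 to -1.24 (0.825) in the vector comparison after SNI, from 2.14 to 0.905 (0.825) in that after sham, from -2.64 to -1.46 (0.742) in SNI against sham with the Mef2c vector and from -8.04 to -2.15 (0.723) in the interaction. With the block Mdfic missed the threshold (-1.25, adjusted p = 0.0577), and 1935 genes were called in the vector comparison after sham. The ratio of Ttr in SNI Gfp 6 to the median of the other libraries was 490 with TMM and 508 with library size alone and on the deposited FPKM.

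Of 809 values of single genes under the alternatives, 8 had another sign. Ttr in SNI against sham with the Gfp vector was -0.30 with limma-voom with quality weights, and -1.64 to 5.88 with 1 library left out, below 0 without SNI Gfp 6. In the vector comparison after SNI it was -6.53 to 1.13, above 0 without SNI Gfp 6. Ccdc153 in the vector comparison after sham was -0.11 with the replicate block, -0.36 with limma-voom and -0.86 to 0.80 with 1 library left out, and -2.76 to 0.33 in SNI against sham with the Mef2c vector, its sign turning without Sham Mef2c 2 in both. Kcnj13 in SNI against sham with the Mef2c vector was -0.063 to 0.41, below 0 without SNI Mef2c 1. The cause was not tested. Counts over all genes differed most by tool: in SNI against sham with the Gfp vector they were 0 with edgeR, 557 with DESeq2, 2777 with limma-voom and 731 on FPKM with 1 added, and 0 to 1392 with 1 library left out. For Folr1 outside 3 libraries, and for Aqp1 and Kcnj13 outside SNI Gfp 6, few counts limit what can be seen.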
